A study of Homo sapiens with 6 samples.

Results

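Chemokine receptors are cell-surface proteins with several membrane-spanning helices that couple mainly to inhibitory G proteins and steer leukocytes along gradients of small secreted proteins, the chemokines. In monocytes and myeloid leukaemia blasts they bear on where cells lodge: CXCR4 holds cells in bone marrow through its ligand CXCL12, while CCR2 draws classical monocytes out of marrow and into inflamed tissue towards CCL2. The transcripts of 7 receptors, CCR1, CCR2, CCR6, CCR7, CX3CR1, CXCR4 and CXCR5, are described here, out of 19775 genes measured. They were chosen by their cortistatin A against DMSO differences on these same arrays, so their values are a description and no p is printed for them. The number of them past the threshold of the fit over all genes, given further on, is part of that description. For each gene the main probe set was the one with the highest mean over the 6 arrays among probe sets annotated to that gene alone.

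The cells were MV4;11, an acute myeloid leukaemia line with an MLL-AF4 rearrangement, grown in medium with serum. One group was kept with 25 nM cortistatin A for 3 h (3 arrays). The other was kept with the solvent DMSO for 3 h (3 arrays). Cortistatin A is an inhibitor of the Mediator kinases CDK8 and CDK19, and the study measured which transcripts had changed by that time. RNA levels came from Affymetrix U133 Plus 2.0 arrays and are log2 RMA values, which have no true zero. The wells were plated in triplicate and nothing says that they came from separate cultures, so errors and p-values cover the variation among these samples alone, and that may be technical. RNA was isolated with a column kit or with TRIzol, and the labels do not tie either method to an array.

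Probe sets are called dim here where their mean over the 6 arrays was at most 3.74 on the log2 scale, the median of all of them. Of 10 measured myeloid and leukaemia markers 9 were not dim, among them the lysozyme gene LYZ, with a mean level of 12.43 with cortistatin A and 12.40 in DMSO. The monocyte antigen CD14 was dim, at 2.63 with cortistatin A and 2.74 in DMSO. The mean level of the 10 markers was 7.27 to 7.34 on the cortistatin A arrays and 7.16 to 7.25 on the DMSO arrays, and KIT (0.54 ± 0.056) and CEBPA (0.42 ± 0.047) rose (limma adjusted p = 0.0227 and 0.0248). FLT3, the receptor tyrosine kinase of early progenitors, was lower on every cortistatin A array and did not pass (-0.20 ± 0.05, limma adjusted p = 0.196), and of the 10 markers 7 were higher and 3 lower. CCR6, CCR7 and CXCR5 are best known from lymphocytes. The mean level of 7 B cell markers was 3.75 to 3.94 with cortistatin A and 3.74 to 3.85 in DMSO. Of these 7, 5 were not dim, and MS4A1 and EBF1 were dim. The mean level of 7 T cell markers was 3.57 to 3.62 with cortistatin A and 3.56 to 3.60 in DMSO. Of these, 4 were not dim, and CD3G, CD2 and CD8A were dim. For all 14 of these lymphocyte genes the groups overlapped. The part of the marker levels in the receptor differences was not tested.

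The DNA just before the transcript start is shown for the 4 receptors with the largest differences, so that the sequence in front of these transcripts can be read beside their values. Each run is the 250 bases before the first start that the RefSeq table gives for the gene, on the gene's strand, in GRCh38.p14. They are chr6:167111545-167111794 (plus strand, CCR6), chr3:46353861-46354110 (plus strand, CCR2), chr3:46208314-46208563 (minus strand, CCR1) and chr2:136118150-136118399 (minus strand, CXCR4). Capitals mark matches on either strand to short motifs of 3 factors of blood cells: GAGGAA for PU.1, TGTGGT for RUNX and TTGCNNAA for C/EBP.
CCR6: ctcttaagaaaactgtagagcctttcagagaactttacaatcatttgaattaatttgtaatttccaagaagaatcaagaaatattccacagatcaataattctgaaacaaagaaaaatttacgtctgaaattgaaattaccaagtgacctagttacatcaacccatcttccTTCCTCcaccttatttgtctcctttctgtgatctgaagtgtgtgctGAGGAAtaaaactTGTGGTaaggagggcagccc
CCR2: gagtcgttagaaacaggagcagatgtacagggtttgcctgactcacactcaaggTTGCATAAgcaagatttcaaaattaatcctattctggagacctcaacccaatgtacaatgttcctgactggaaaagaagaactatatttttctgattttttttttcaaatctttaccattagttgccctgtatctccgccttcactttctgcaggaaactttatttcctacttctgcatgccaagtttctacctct
CCR1: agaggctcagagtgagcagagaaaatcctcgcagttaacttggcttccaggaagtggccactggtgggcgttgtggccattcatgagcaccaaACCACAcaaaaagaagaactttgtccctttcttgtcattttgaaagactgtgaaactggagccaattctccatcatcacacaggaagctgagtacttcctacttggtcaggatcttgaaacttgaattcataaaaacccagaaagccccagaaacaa
CXCR4: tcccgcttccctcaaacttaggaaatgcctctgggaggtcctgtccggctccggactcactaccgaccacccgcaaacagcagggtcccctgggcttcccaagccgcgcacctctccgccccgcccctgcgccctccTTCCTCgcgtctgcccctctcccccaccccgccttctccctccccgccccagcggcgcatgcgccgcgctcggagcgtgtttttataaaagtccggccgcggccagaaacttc

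RefSeq gave 12 such windows for 6 of the 7 receptors. A receptor can have more than 1 window, so windows are counted beside the share of all windows. The PU.1 letters stood in 6 of the 12 windows, from 3 receptors (CCR6, CX3CR1 and CXCR4), and in 23.6% of all 35116 windows. The RUNX letters stood in 2 of the 12, from CCR1 and CCR6 (11% of all windows). The C/EBP letters stood in 2 of the 12, from CCR2 and CCR6 (9.05%). In the CCR6 sequence shown, PU.1 matches began 79 and 33 bases before the start and a RUNX match 20 bases before it. The CCR1 sequence held a RUNX match 157 to 152 bases before the start, and the CCR2 sequence a C/EBP match 196 to 189 bases before it. The AP-1 letters TGANTCA (6.57% of windows) were found for CCR2 alone, 212 to 206 bases before the start. The TATA letters TATAAA (10.7%) were found for CXCR4 alone, in overlapping matches on both strands that began 32 and 30 bases before the start. The KLF letters CACCC (54.7%) occurred in 6 of the 12 windows, from 4 receptors, and the hypoxia letters ACGTG (18.5%) in 1, from CX3CR1. The E-box CACGTG, which contains the hypoxia letters, occurred for 0 receptors (6.34%). These matches are letters in a window and were not tested as binding sites.

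CCR6, the receptor for CCL20 on B cells, Th17 cells and immature dendritic cells, had the largest difference of the 7. Its log2 values were 6.20, 6.10 and 6.37 with cortistatin A, against 5.37, 5.03 and 5.29 in DMSO. All 3 cortistatin A arrays lay above all 3 DMSO arrays, with 0.73 between the nearest. The difference was 1.0 ± 0.11 on the log2 scale (limma standard error, n = 3 arrays per group), or 2.00-fold, and ranked 3 among the changes of 19775 genes ordered from the largest rise. CCR6 has a single probe set on the array. In bulk RNA, more cells with a transcript cannot be told apart from more transcript per cell.

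CCR2 is the receptor of classical monocytes for CCL2. It read 10.64, 10.71 and 10.64 with cortistatin A, against 9.96, 9.92 and 9.96 in DMSO. The groups were apart by 0.68, with a spread of 0.042 with cortistatin A and 0.024 in DMSO (SD, n = 3 each). The difference was 0.72 ± 0.049 on the log2 scale (limma standard error), or 1.65-fold, and ranked 12. A second CCR2 probe set, tied to another RefSeq transcript in the platform annotation, had 5.90, 5.95 and 5.83 with cortistatin A, against 5.29, 5.33 and 5.08 in DMSO. Its groups were also apart, and its difference was 0.66 ± 0.085.

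CCR1 binds CCL3 and CCL5 and is found on monocytes and other myeloid cells. Its main probe set had 9.98, 9.92 and 9.92 with cortistatin A, against 9.35, 9.32 and 9.35 in DMSO. The groups were apart by 0.57. The difference was 0.60 ± 0.047 (limma standard error, n = 3 arrays per group), or 1.52-fold, and ranked 29. The other CCR1 probe set gave 7.78, 7.72 and 7.74 with cortistatin A, against 7.05, 7.27 and 7.24 in DMSO, again without overlap and with a difference of 0.56 ± 0.077.

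CXCR4, the CXCL12 receptor, was measured by 3 probe sets, none of them dim. The main probe set had 11.31, 11.25 and 11.35 with cortistatin A, against 10.89, 10.89 and 10.97 in DMSO. The groups stood 0.28 apart. The difference was 0.39 ± 0.054 (limma standard error, n = 3 arrays per group), or 1.31-fold, and ranked 175. The other probe sets are of the _x_at and _s_at types, which can match more than 1 transcript. They differed by 0.33 ± 0.065 and 0.34 ± 0.072, each with the groups apart.

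CXCR5 guides B cells and follicular helper T cells into follicles through CXCL13. Its main probe set, an _s_at type, had 4.49, 4.56 and 4.38 with cortistatin A, against 4.04, 4.25 and 4.17 in DMSO. The groups were apart by 0.13, with a spread of 0.091 with cortistatin A and 0.10 in DMSO (SD, n = 3 each). The difference was 0.32 ± 0.075 (limma standard error), or 1.25-fold, and ranked 341. A second, dim probe set had 3.03, 3.13 and 3.10 with cortistatin A, against 2.88, 2.96 and 2.77 in DMSO. Its groups were apart too, with a difference of 0.22 ± 0.073.

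CCR7 brings dendritic cells and naive T cells to lymph nodes through CCL19 and CCL21. Its single probe set was dim, with 2.15, 1.96 and 2.20 with cortistatin A, against 1.93, 2.22 and 1.79 in DMSO. The groups overlapped, the highest value being a DMSO array, and the difference was 0.12 ± 0.12. CX3CR1 is the fractalkine receptor of patrolling monocytes. It had 5.37, 5.37 and 5.26 with cortistatin A, against 5.33, 5.33 and 5.34 in DMSO. The groups overlapped, and the difference of -0.0048 ± 0.053 was smaller than its error (limma standard error, n = 3 arrays per group). A second, dim CX3CR1 probe set differed by -0.11 ± 0.10, also with overlap.

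**Figure D1:**
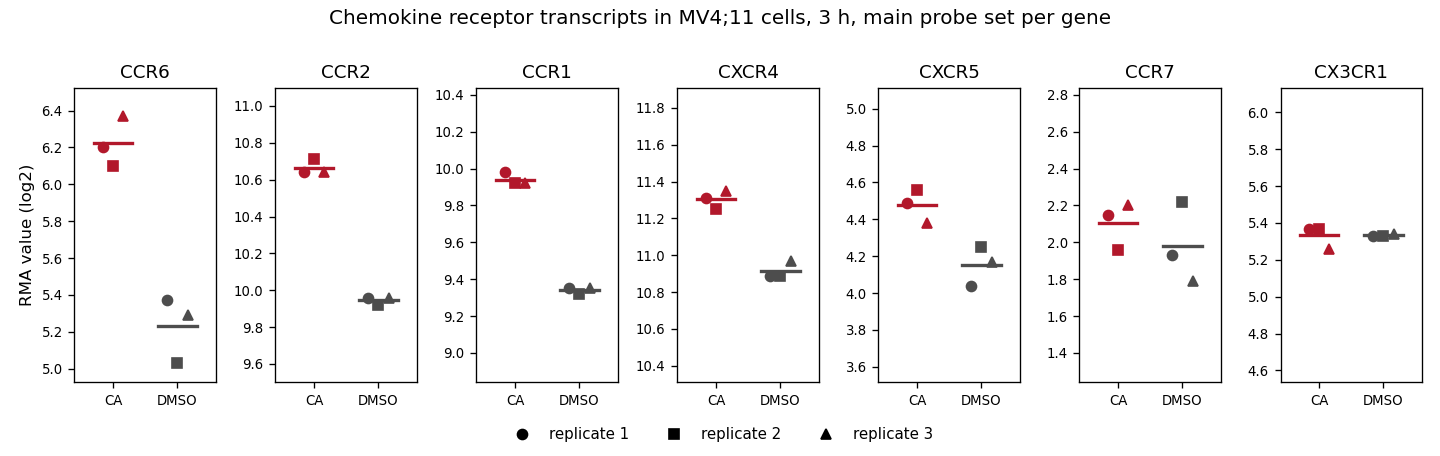
Log2 RMA value of the main probe set of each receptor on each array, with cortistatin A (CA) left of DMSO; every panel spans the same height, points are arrays and lines are group means. CCR6, CCR2, CCR1, CXCR4 and CXCR5 have all 3 CA arrays above all 3 DMSO arrays, by 0.73, 0.68, 0.57, 0.28 and 0.13, while CCR7 and CX3CR1 overlap.

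The groups were apart for 5 of the 7 receptors, all higher with cortistatin A, and for 0 in the lower direction. Of all genes, 10.2% were apart and higher and 9.22% apart and lower. With a Benjamini-Hochberg adjusted p under 0.05 in the limma fit over all genes as the rule for a call, CCR1, CCR2, CCR6 and CXCR4 were past it as higher, 4 of 7, and 0 as lower. That rule called 0.445% of all genes higher and 0.137% lower. Since the receptors were chosen with this contrast known, nothing is read from these counts. The median difference was 0.39 over the 7 receptors and 0.0065 over all genes. Leaving out any 1 of the 6 arrays brought the number of receptors past the rule to 0. Across those fits the difference was 0.90 to 1.07 for CCR6, 0.70 to 0.73 for CCR2, 0.58 to 0.61 for CCR1, 0.36 to 0.41 for CXCR4 and 0.27 to 0.37 for CXCR5. Without the _x_at and _s_at probe sets CXCR4 was not past the rule, at the same difference of 0.39, and CXCR5 stood at 0.22.

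**Figure D2:**
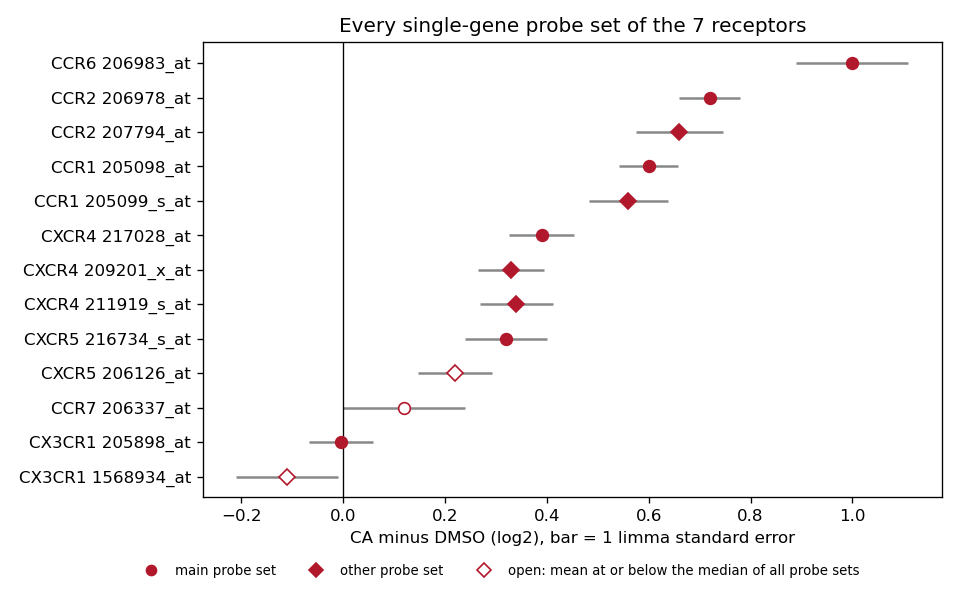
Difference between cortistatin A (CA) and DMSO on the log2 scale for all 13 single-gene probe sets of the 7 receptors, with 1 limma standard error; circles are main probe sets, diamonds the others, and open symbols are dim (mean of 3.74 or less). Both probe sets of CCR2 and of CCR1 and all 3 of CXCR4 lie between 0.33 and 0.72, and the open symbols between -0.11 and 0.22.

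The 3' minus 5' log2 signal of control transcripts, which moves with RNA length and labelling, was read beside the receptors. Averaged over 22 control transcripts it was 0.774, 0.750 and 0.721 with cortistatin A, against 0.649, 0.746 and 0.728 in DMSO, and the groups overlapped (two-sided exact permutation p = 0.4). Of these 22, 17 are spike-ins and not transcripts of the cells, so this average says little about the cells' own RNA. For beta-actin alone it was 1.88, 1.89 and 2.08 with cortistatin A, against 1.77, 1.69 and 1.79 in DMSO. Here the groups were apart (p = 0.1 by a two-sided exact permutation test, which cannot go lower with 3 against 3 arrays). GAPDH alone gave 1.126, 1.117 and 1.166 with cortistatin A, against 1.081, 1.042 and 1.128 in DMSO, with overlap (two-sided exact permutation p = 0.3). Cortistatin A replicate 3 had the highest beta-actin value and the highest CCR6 and CXCR4 values, whereas CCR2 was highest on replicate 2, CCR1 on replicate 1, and CXCR5 was lowest of the cortistatin A arrays on replicate 3. The mean of the beta-actin and GAPDH values was 1.504, 1.505 and 1.621 with cortistatin A, against 1.427, 1.365 and 1.459 in DMSO, so the groups were apart. That mean and the treatment go together on these arrays, and a fit with both cannot cleanly separate them. Such a fit, with the mean as a covariate, was chosen after these data were seen. In it CCR2 differed by 0.72 ± 0.087 and CCR1 by 0.61 ± 0.084, while CCR6 differed by 0.70 ± 0.12, CXCR4 by 0.31 ± 0.086 and CXCR5 by 0.48 ± 0.11. With the value over all 22 transcripts as the covariate, CCR6 differed by 1.11 ± 0.10, CCR2 by 0.73 ± 0.063, CCR1 by 0.60 ± 0.061, CXCR4 by 0.38 ± 0.069 and CXCR5 by 0.24 ± 0.07. Neither covariate fit called any gene (0 of 19775 by limma, with 1805 and 1960 at an unadjusted p under 0.05).

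Of 11 other signalling chemokine receptors listed, 9 were measured. None of the 9 was called, had an unadjusted limma p under 0.05 or had groups apart, and their differences ran from -0.20 to 0.084, with a median of -0.015. CXCR2, a neutrophil receptor for interleukin 8, had 6.17, 6.10 and 6.33 with cortistatin A, against 6.39, 6.20 and 6.35 in DMSO (-0.11 ± 0.081, limma adjusted p = 0.63). CXCR1, which also binds interleukin 8, differed by -0.029 ± 0.053, the T cell receptor CXCR3 by -0.075 ± 0.085, CXCR6 by 0.017 ± 0.088 and CCR4 by -0.00075 ± 0.11 (limma adjusted p = 0.777 to 0.999). The 5 atypical receptors, which bind chemokines without classical G protein signalling, were all dim, and 0 were called. ACKR3, which shares the ligand CXCL12 with CXCR4, had 3.30, 3.29 and 3.72 with cortistatin A, against 3.10, 2.74 and 2.98 in DMSO. Its groups were apart, and its difference of 0.50 ± 0.14 did not pass (limma adjusted p = 0.239). ACKR3 was named after its values were seen. Whether the 7 receptors differ from their relatives was not tested.

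Of 17 chemokines that bind the 7 receptors, 13 were measured and limma called 0 (2 higher and 1 lower at an unadjusted p under 0.05). At that unadjusted threshold 6.81% of all genes were higher and 5.83% lower. The median difference of the ligands was 0.076 and their range -0.16 to 0.23. CCL23, a CCR1 ligand, had 7.20, 7.21 and 7.27 with cortistatin A, against 7.04, 7.07 and 7.11 in DMSO. Its groups were apart, at 0.15 ± 0.05 (limma adjusted p = 0.277). The CCR7 ligand CCL21 differed by 0.15 ± 0.061, the CCR1 ligand CCL5 by 0.13 ± 0.083 and the CCR2 ligand CCL2 by 0.22 ± 0.15 (limma adjusted p = 0.366, 0.578 and 0.61). CXCL13, the CXCR5 ligand, was dim, at -0.16 ± 0.065 (limma adjusted p = 0.385), as were CCL20, the CCR6 ligand, at -0.0029 ± 0.16 and CXCL12 at 0.23 ± 0.18. MIF, a cytokine that also engages CXCR4, had 12.05, 12.04 and 12.09 with cortistatin A, against 12.03, 12.03 and 11.96 in DMSO (0.055 ± 0.05, limma adjusted p = 0.71).

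Among 26 other chemokines limma called 0 (0 higher and 1 lower at an unadjusted p under 0.05, against 6.81% and 5.83% of all genes). The 1 lower was CCL11, the eosinophil chemokine eotaxin, named after its values were seen. A dim gene, it had 1.99, 1.91 and 1.99 with cortistatin A, against 2.25, 2.36 and 2.26 in DMSO (-0.33 ± 0.055, limma adjusted p = 0.0747). CXCL8, which is interleukin 8, differed by 0.034 ± 0.093, CXCL3 by -0.20 ± 0.14, CXCL17 by -0.13 ± 0.13 and CCL24 by 0.19 ± 0.095.

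Chemoattractant receptors outside the chemokine family held 1 call, as higher, among 15 measured. Of all genes limma called 0.445% higher and 0.137% lower. With an unadjusted p under 0.05, 4 of the 15 were higher and 0 lower, against 6.81% and 5.83% of all genes. Of the 15 differences 12 were positive and 3 negative, with a median of 0.10. GPR183, which guides leukocytes along oxysterol gradients, had 8.39, 8.18 and 8.64 with cortistatin A, against 7.46, 7.50 and 7.48 in DMSO. It rose by 0.92 ± 0.11, or 1.90-fold (limma adjusted p = 0.0332, and 1.27e-05 to 0.425 over the alternatives). PTAFR, the receptor of platelet-activating factor, had 7.06, 7.16 and 7.0 with cortistatin A, against 6.64, 6.78 and 6.59 in DMSO. Its groups were apart in all 3 of its probe sets, at ratios of 1.32 and 1.33, and its difference of 0.41 ± 0.072 did not pass (limma adjusted p = 0.0841). The complement receptor C3AR1 differed by 0.41 ± 0.16 and the sphingosine phosphate receptor S1PR3 by 0.32 ± 0.12, with overlapping groups (limma adjusted p = 0.362 and 0.327).

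Among 25 genes for G proteins and their first effectors, limma called 1 higher and 0 lower, against 0.445% and 0.137% of all genes. With an unadjusted p under 0.05, 5 were higher and 1 lower, against 6.81% and 5.83% of all genes. Of the 25 differences 14 were positive and 11 negative, with a median of 0.014. PIK3R5, the regulatory subunit through which G protein beta-gamma engages the leukocyte lipid kinase PI3K gamma, had 7.80, 7.81 and 7.73 with cortistatin A, against 7.41, 7.32 and 7.30 in DMSO. It rose by 0.44 ± 0.054, or 1.35-fold (limma adjusted p = 0.0333, and 9.19e-05 to 0.421 over the alternatives). Its other probe sets gave ratios of 1.01 and 1.07, and the mean of its probe sets was not called (0.19, limma adjusted p = 0.214). GNAI1, an inhibitory alpha subunit, differed by 0.42 ± 0.081, the adenylate cyclase ADCY7 by 0.26 ± 0.061 and the gamma subunit GNG2 by 0.25 ± 0.076 (limma adjusted p = 0.108, 0.173 and 0.259). The other GNAI1 probe set, a dim one, was at 0.61 with the groups apart. The other ADCY7 probe set was at -0.0096 and those of GNG2, all dim, at 0.10, 0.062 and 0.0078, each with overlapping groups. GNAI2, the main inhibitory alpha subunit of leukocytes, was at -0.042 ± 0.053 and the catalytic subunit PIK3CG at -0.032 ± 0.051.

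The 22 measured actin and integrin effectors, none of them dim, had a median of 0.0026, and limma called 0 (2 higher and 0 lower at an unadjusted p under 0.05, against 6.81% and 5.83% of all genes). These 2 were SELPLG, the selectin ligand PSGL-1, at 0.21 ± 0.053 and ITGA4, the alpha chain of the integrin VLA-4, at 0.13 ± 0.05 (limma adjusted p = 0.184 and 0.351). The other SELPLG probe set was at 0.041 with overlapping groups. Those of ITGA4 were at 0.19 with the groups apart, and at 0.056 and 0.026 with overlap. ITGAX stood at 0.16 ± 0.068 and ITGB1, the partner of ITGA4, at -0.11 ± 0.05.

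Among 21 measured genes that switch the receptors off, move them or act as partners, limma called 1 higher and 0 lower. Of all genes it called 0.445% higher and 0.137% lower. With an unadjusted p under 0.05, 2 of the 21 were higher and 3 lower, against 6.81% and 5.83% of all genes. Of the 21 differences 10 were positive and 11 negative, with a median of -0.005. RGS16, which speeds GTP hydrolysis by G proteins, had 5.93, 6.03 and 5.96 with cortistatin A, against 5.40, 5.59 and 5.50 in DMSO. It rose by 0.48 ± 0.066, or 1.39-fold (limma adjusted p = 0.0427, and 0.00197 to 0.421 over the alternatives). Its second probe set gave a ratio of 1.20 and its dimmest probe set 0.87, the only 1 left without the _x_at and _s_at types (-0.20, limma adjusted p = 0.356). None of the other 7 measured RGS genes of this list passed, and RGS genes outside the list were not read. RGS14 was at -0.17 ± 0.051, RGS2 at -0.30 ± 0.10, RGS18 at -0.31 ± 0.11 and RGS3 at -0.23 ± 0.10 (limma adjusted p = 0.241, 0.299, 0.305 and 0.433). RGS1, a dim gene, was at 0.25 ± 0.11, RGS10 at -0.043 ± 0.045 and RGS19 at -0.032 ± 0.055 (limma adjusted p = 0.417, 0.755 and 0.861), and the other probe sets of RGS14 were at -0.058 and 0.0047. RGS18, RGS3, RGS1, RGS10 and RGS19 were named after their values were seen. The receptor kinases GRK2, GRK3, GRK5 and GRK6 differed by 0.083, 0.10, 0.094 and 0.037, all with overlapping groups. CD44, a co-receptor in CXCR4 signalling, was at 0.15 ± 0.05 (limma adjusted p = 0.297). Over all 136 measured pathway genes limma called 3 higher and 0 lower, against 0.445% and 0.137% of all genes. With an unadjusted p under 0.05, 16 were higher and 6 lower, against 6.81% and 5.83% of all genes. Of the 136 differences 74 were positive and 62 negative, with a median of 0.017. Leaving out any 1 array ended all 3 calls.

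**Figure D3:**
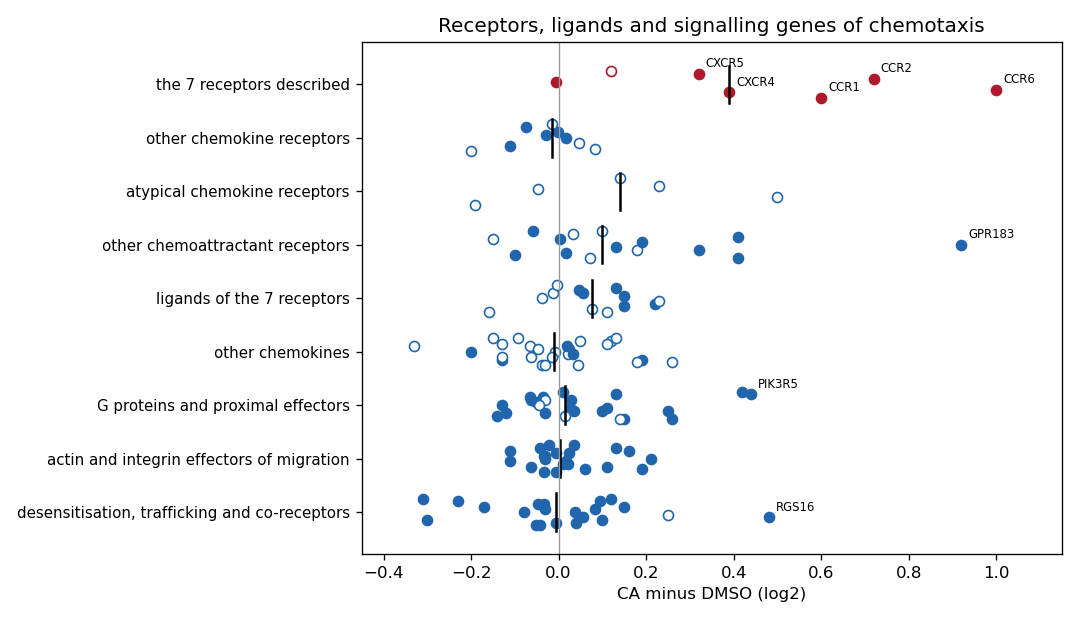
Difference between cortistatin A (CA) and DMSO on the log2 scale for each gene, by list, with the 7 receptors among the lists; vertical lines are list medians and open points are dim (mean of 3.74 or less). The 7 receptors have a median of 0.39 and the other chemokine receptors one of -0.015, and the called pathway genes are GPR183 (0.92), RGS16 (0.48) and PIK3R5 (0.44).

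Position was examined because CCR1 and CCR2 lie in a cluster of chemokine receptor genes on chromosome 3. CCR1 spans chr3:46201711-46208313 and CCR2 chr3:46354111-46360940 in GRCh38.p14, 146 kb apart. In the same region XCR1, 116 kb from CCR1, differed by 0.084 ± 0.13, CXCR6 by 0.017 ± 0.088, CCR9 by -0.015 ± 0.061 and CCRL2, 46.3 kb from CCR2, by -0.046 ± 0.18. All 4 had overlapping groups (limma adjusted p = 0.841 to 0.957), and XCR1, CCR9 and CCRL2 were dim. RTP3, a receptor transporter gene 137 kb from CCR2 and also dim, was higher on every cortistatin A array and did not pass (0.38 ± 0.12, limma adjusted p = 0.261). It had the largest difference of the neighbours and was named after its values were seen. CCR8, 36.7 kb from CX3CR1 at chr3:39263494-39292966, was dim as well, at 0.046 ± 0.092. The nearest measured genes on either side of CCR6 (chr6:167111795-167139141), CEP43 at 59.1 kb and GPR31 at 16.1 kb, differed by 0.033 ± 0.10 and 0.067 ± 0.078. MCM6, a replication helicase gene 238 kb from CXCR4 (chr2:136114349-136118149), differed by 0.012 ± 0.049. BCL9L, whose annotated span overlaps that of CXCR5 (chr11:118883892-118897787), differed by -0.21 ± 0.09 with overlapping groups (limma adjusted p = 0.397). CCR7 lies at chr17:40553769-40565472.

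Of the 60 neighbours that are not among the receptors, taken as the 5 nearest measured protein-coding genes on each side, limma called 0 (7 higher and 2 lower at an unadjusted p under 0.05, against 6.81% and 5.83% of all genes). Their median was 0.021 and their range -0.31 to 0.38. DDX6, an RNA helicase gene 92.1 kb from CXCR5, differed by 0.27 ± 0.056, and EIF1B, a translation initiation factor gene and the fifth measured gene above CX3CR1, by 0.27 ± 0.055 (limma adjusted p = 0.136 and 0.134). Both were named after their values were seen. They passed with dim genes left out (limma adjusted p = 0.0474 for DDX6 and 0.0451 for EIF1B) and with trend and robust variances (0.00113 and 0.00037).

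**Figure D4:**
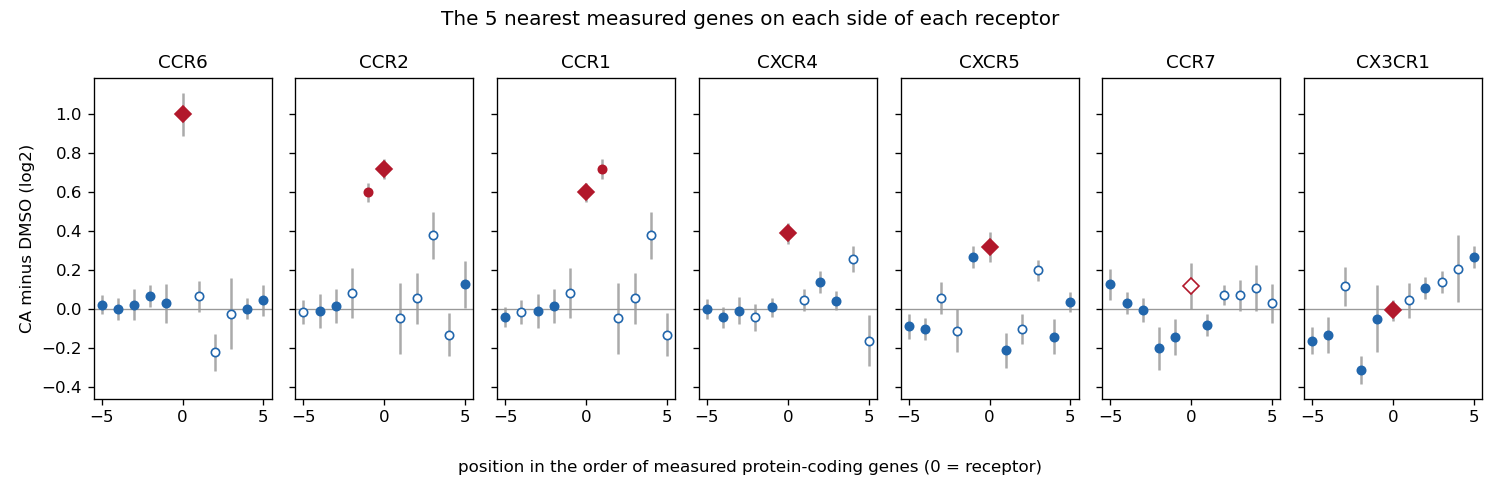
Difference between cortistatin A (CA) and DMSO on the log2 scale for each receptor (diamond) and its 5 nearest measured protein-coding genes on each side, in gene order, with 1 limma standard error; red marks receptors of the 7 and open symbols dim genes (mean of 3.74 or less). CCR6 stands at 1.0 among neighbours between -0.22 and 0.069, and CCR1 and CCR2 appear in each other's panels.

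The genes with array profiles most like those of CCR6, CCR2 and CXCR4 were found by the root mean square distance between log2 profiles over the 6 arrays, each minus its own mean. The profiles hold the same contrast, so the likeness is a description. Nearest to CCR6 were ALDH1A3, which oxidises retinaldehyde (distance 0.105), GPR183 (0.13) and the cytokine receptor chain IL7R (0.144). All 3 shared with CCR6 the highest value on cortistatin A replicate 3 and the lowest cortistatin A value on replicate 2. The DMSO order was not shared by all. CCR6 and ALDH1A3 were lowest on DMSO replicate 2, GPR183 on DMSO replicate 1 and IL7R on DMSO replicate 3. Nearest to CCR2 were the lipopolysaccharide-response modulator CD180 (0.0384), the retinol dehydrogenase DHRS9 (0.0506) and the transporter SLC15A4 (0.0536). CD180 had 8.57, 8.53 and 8.50 with cortistatin A, against 7.78, 7.78 and 7.84 in DMSO. Nearest to CXCR4 were IL1RAP, the shared chain of interleukin 1 receptors (0.0206), the proteoglycan SDC2 (0.0272) and the TGF-beta receptor TGFBR1 (0.0273). IL1RAP had 8.74, 8.69 and 8.78 with cortistatin A, against 8.33, 8.36 and 8.46 in DMSO.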

How the data were processed

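RNA of 3 cortistatin A and 3 DMSO samples was measured, grouped by the treatment label. The deposited values are 1 log2 value per probe set and array, made by RMA in the affy package, of unstated version, per the submitters' processing notes. The scale is not written in the table and was taken as log2 from RMA and from values of 0.81 to 13.84. RMA's quantile step removes a shift common to all transcripts, and differences near background can be compressed. No genome build is named, and coordinates are those of the RefSeq tables (GRCh38.p14). No detection calls were used, so a value above the median is not a detection. Levels of different probe sets were compared only to choose main probe sets and to define dim, and were averaged over marker lists. Precision is limited by the number of arrays.

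Of 54675 probe sets, 62 are controls, 41091 name 1 gene, 1801 name several and 11721 are unnamed in the platform annotation used. Symbols were updated through RefSeq for 41037 and kept for 54. The brightest single-gene probe set per gene gave 19775 genes. No pair of arrays held more than 678 probe sets with exactly equal deposited values (no tolerance). limma 3.58.1 in R 4.3.3 (lmFit, eBayes) compared the groups over all genes, with group as the only term and Benjamini-Hochberg adjustment, after being tested on simulated data. Errors of the probe sets that are not main ones come from a separate limma fit over probe sets, not genes, with the same group term. The errors of the 2 fits differ. For the main CCR1 probe set the error was 0.058 in the fit over probe sets and 0.047 in the fit over genes.

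The receptors, the gene lists and the tests were chosen with earlier results of these data known. Named were the 7 receptors, every called gene of a list with up to 4 genes of smallest p that were not dim (mean over the median of all probe sets), the other and atypical receptors that were not dim, neighbours in a list or called, and the 3 nearest profiles of CCR6, CCR2 and CXCR4. Others are named as background or as chosen after their values were seen. Some listed genes were not analysed here, and counts are given over the genes measured. Marker lists for natural killer cells, dendritic cells and erythroid cells and megakaryocytes were also read. Their mean levels were 4.18 to 4.22, 4.12 to 4.23 and 4.19 to 4.42 with cortistatin A, against 4.15 to 4.29, 4.08 to 4.21 and 4.28 to 4.33 in DMSO, and 0 of their genes were called. The alternatives were a replicate block, dim genes left out, the mean of a gene's probe sets, no _x_at or _s_at probe sets, a further quantile normalization, centring on housekeeping genes, trend and robust variances, the RNA index as a covariate and each array left out.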

Additional observations from a re-analysis of the deposited data

How the results depend on the processing

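The median difference of the 7 receptors was 0.39, 0.50 with dim genes left out, and 0.37 to 0.41 with each array left out in turn. Of all genes limma called 115, and 0 with the replicate block, 321 once dim genes were dropped, 76 on the mean of a gene's probe sets, 54 without _x_at and _s_at probe sets, 762 with trend and robust variances, 0 with the RNA index as a covariate, 0 with the beta-actin and GAPDH index (chosen after seeing the data), and 0 to 4 with each array left out (2243 at an unadjusted p under 0.05 with the block, 1960 and 1805 with the covariates). Of the pathway genes it called 3, and in the same order 0, 5, 1, 1, 8, 0, 0 and 0 to 0. Of the neighbours it called 0, but 2 with dim genes left out and 2 with trend and robust variances. RGS16 reversed to -0.20 without _x_at and _s_at probe sets, where only its dim probe set is left. The group difference of the RNA index was 0.040 over all control transcripts, 0.127 with beta-actin and GAPDH only, and 0.011 to 0.060 with each array left out. Replicate numbers did not pair the arrays (r = -0.055, 0.009 and 0.016 for numbers 1, 2 and 3), and the replicate block left 0 receptors past the threshold. Fewer residual degrees of freedom enter the block, covariate and left-out fits by construction. What changed the number of calls between the fits was not tested. RMA can compress differences near background, and whether it did so for genes below the median of all probe sets, CCR7 among them, was not tested.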
